A study of Mus musculus with 10 samples.

Results

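Receptor-type protein tyrosine phosphatases were followed across whole brains of newborn mice, with single-X (XO) animals set against XX females from a pair of crosses. The genes were Ptprv, Ptprs, Ptprd, Ptprf, Ptprz1, Ptprg, Ptprk, Ptprm, Ptpro and Ptprn, and every probe set with 1 of these gene symbols was taken: 18 of the 12488 probe sets on the array, for 10 of 8251 genes, all autosomal in the reference gene table. The family was chosen because Ptprv had stood out in these data in the difference between the crosses. The values of Ptprv are therefore given as a description, with no test, while the other 9 genes were taken by name. Of the 18 probe sets, 14 passed the filter on dim probe sets, with at least 1 for each gene. The probe sets of a gene are lettered a, b and c from the brightest to the dimmest.

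Total RNA of the brain at postnatal day 0 was hybridised to 10 arrays, which report an intensity on a linear scale for each probe set. XmO animals (39 chromosomes, a single X named maternal in the labels; n = 3) and XX_Paf females (40 chromosomes; n = 3) came from the cross written C57BL/6J x C3H/Paf. XpO animals (39 chromosomes, a single X named paternal; n = 2) and XX_InX females (40 chromosomes; n = 2) came from the cross written In(X)/C3H x C57BL/6J. The X that is missing and the direction of the cross therefore differ together between XmO and XpO. The labels do not say whether an array holds RNA of 1 animal or a pool, so p-values measure only the spread between these samples.

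Receptor-type tyrosine phosphatases span the cell membrane. Inside the cell they remove phosphate from tyrosine residues, and outside they carry immunoglobulin, fibronectin, MAM or carbonic anhydrase-like domains, much as adhesion molecules do. In the developing brain they are known for roles in axon guidance, synapse formation and the growth of glial precursors. They bind proteoglycans, contactins, growth factors such as pleiotrophin, or the same receptor on the next cell. Ptprv, also known as OST-PTP, is the outlier of the family in its known sites of expression, which are bone-forming osteoblasts and Sertoli cells of the testis, and its human counterpart is a pseudogene.

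Every array had the same trimmed mean, 500.3. Xist, the RNA of the inactive X, was at 1673 to 4082 on the XX arrays and at 21.3 to 49.9 on the XO arrays, and all 6 neuronal marker genes were above background on every array. Y-linked probe sets have no template in these animals, and the highest of 9 such values on an array is taken as its background, which ran from 33.6 to 136.6. XpO 18 and XX_InX 1 had the lowest mean correlations with the other arrays (0.945 and 0.948, against 0.952 to 0.961 for the others). XX_Paf 1 was next at 0.952, and lay at -23.6 on the first principal component, beside 22.4 for XX_InX 1. XpO 18 also lay far from XpO 15 on the first principal component (27.4 against -15.0). Estimates in the In(X) cross, which has 2 arrays a group, are given with their range when 1 array is left out. In whole tissue, fewer cells of a type and less RNA per cell cannot be told apart.

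Ptprv was read by 3 probe sets, and only 1 of them gave a signal above background on any array. On probe set a, the XmO arrays 1, 2 and 7 were at 99.4, 159 and 195, and the XX_Paf arrays 1, 2 and 3 at 20.9, 42.1 and 53.6. The XpO arrays 15 and 18 were at 17.9 and 30.3, and the XX_InX arrays 1 and 19 at 207.5 and 244. The high groups were thus the maternal-X XO animals of one cross and the XX females of the other. All 5 arrays of these groups were above their brightest Y-linked probe set, and all 5 arrays of XX_Paf and XpO were below it. No high array overlapped with a low one. In order of their means, the groups were XX_InX (226 ± 25.8, SD, n = 2), XmO (151 ± 48.5, SD, n = 3), XX_Paf (38.9 ± 16.6, SD, n = 3) and XpO (24.1 ± 8.77, SD, n = 2). The neighbours XX_InX and XmO lay close, at a ratio of 1.55 of their geometric means, and did not overlap (highest XmO array 195, lowest XX_InX array 207.5). XX_Paf and XpO overlapped and were both below background, so they have no order.

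**Figure D1:**
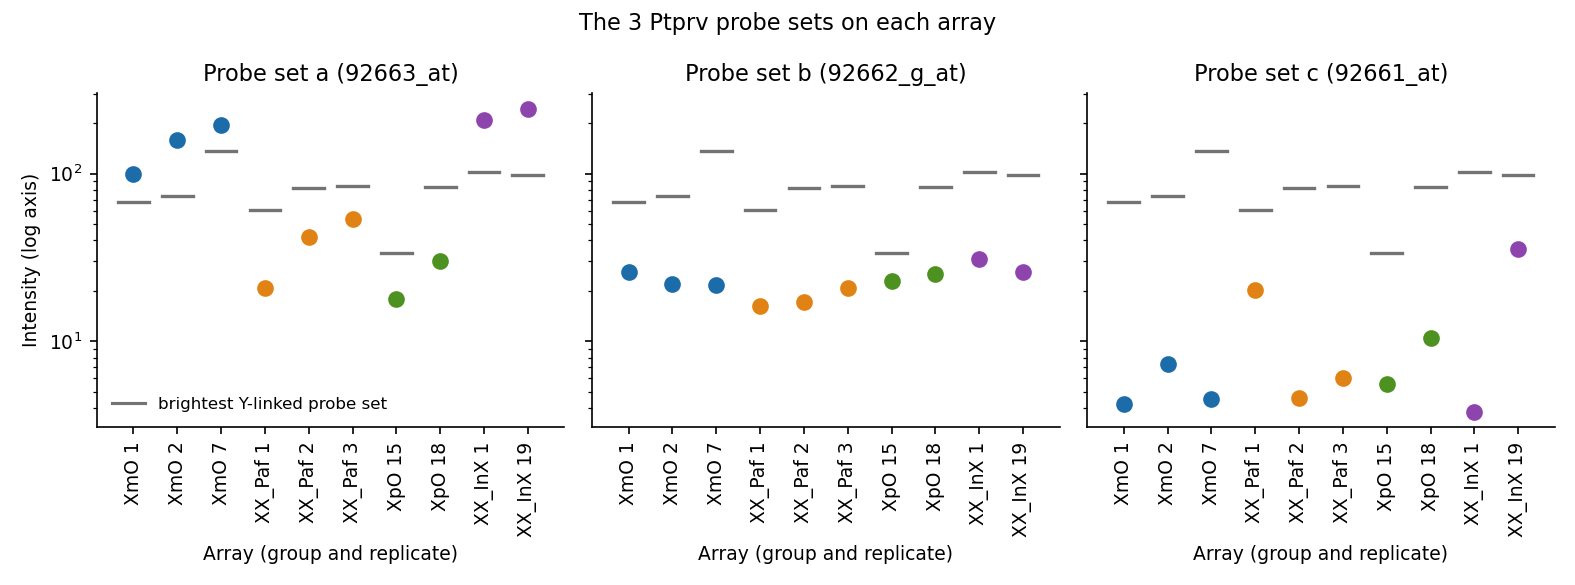
Intensity (log axis) of the 3 Ptprv probe sets on each of the 10 arrays, coloured by group; the grey bar over each array is its brightest Y-linked probe set. On probe set a the XmO and XX_InX points lie above the grey bars and the XX_Paf and XpO points below them, while all 20 points of the other panels lie below.

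Because the low groups are at background, ratios are given as bounds, with each low array set to the higher of its own value and its brightest Y-linked probe set. By this measure Ptprv was at least 1.95-fold higher in XmO than in XX_Paf. With 1 array left out, this bound ran from 1.68 (without XmO 7) to 2.36 (without XmO 1). XX_InX exceeded XpO at least 4.25-fold, XmO exceeded XpO at least 2.75-fold, and XX_InX exceeded XX_Paf at least 3.01-fold. These ratios share groups and are not independent. Single arrays set the size of these bounds: without XpO 15, which had the lowest background, XX_InX exceeded XpO at least 2.70-fold and XmO exceeded XpO at least 1.75-fold, and without XpO 18 these bounds were 6.70 and 4.33. Between the crosses, the XO minus XX difference in log2 differed by at least 3.05, at least 2.39 without XpO 15 and at least 3.71 without XpO 18. The difference between the crosses was called on 0.0230% of all probe sets, and the Ptprv probe set was 1 of these 2; since the genes were chosen on that value, nothing is read from it.

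The other Ptprv probe sets did not show this pattern. Probe set b was between 16.3 and 31.1 on all 10 arrays, with group means of 23.2 ± 2.34 in XmO, 18.1 ± 2.33 in XX_Paf (SD, n = 3 each), 24.0 ± 1.70 in XpO and 28.6 ± 3.61 in XX_InX (SD, n = 2 each). Probe set c was between 3.8 and 35.6. Both were below background on every array and were not tested. By the platform annotation these dim probe sets were designed on the same sequence record, and probe set a on a different record assigned to the same gene. Whether probe set a reads Ptprv RNA was not tested, so its values are those of the probe set that the annotation gives to Ptprv. Even on probe set a the geometric mean over the arrays was 72.5, just over the 68.3 needed to pass the filter, and only 1.33% of the tested probe sets were dimmer. The pattern therefore rests on a single dim probe set.

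Osteoblasts are a known site of Ptprv, and the bone and cartilage markers were examined beside it. Of 7 marker genes on the array, 4 were above background on every array, among them the collagen genes Col1a1 and Col1a2. Their summed intensity was 4614 to 4775 in XX_InX and 3761 to 4062 in XmO, against 3362 to 3883 in XX_Paf and 3418 to 4575 in XpO. The XX_InX arrays were the highest, but XmO overlapped with both low Ptprv groups. The bone sialoprotein gene Ibsp, a marker of osteoblasts, averaged 148 ± 65.2 for XmO, 88.0 ± 75.1 for XX_Paf, 115 ± 43.6 for XpO and 80.9 ± 109.2 for XX_InX, with 6 of 10 arrays above background, so the groups overlapped widely. In log2, 4 of the 5 tested bone genes had a larger XO minus XX difference in the Paf than in the In(X) cross. That is the direction of Ptprv, and 51.87% of all tested probe sets had it. The differences between the crosses ran from 0.07 (SE 0.39, Alpl) to 0.45 (SE 0.27, Col1a2) in these 4 genes. For Ibsp the difference was -0.13 (SE 1.31). None of the 5 tested bone genes was called in any comparison, and their part in the Ptprv result was not tested.

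The genes around Ptprv on its chromosome were compared with it through the reference gene table. Of the 5 measured genes on either side, none was called in any comparison. From the left these were Cyb5r1, Adipor1, Kdm5b, Syt2 and Ube2t, followed on the right by Gpr37l1, Elf3, Rnpep, Timm17a and Nav1. Cyb5r1, a reductase gene, was the neighbour with the largest difference between the crosses, on the log2 scale 0.28 (SE 0.18) for XmO minus XX_Paf and -0.41 (SE 0.22) for XpO minus XX_InX. It was at 290 ± 23.9 for XmO, 242 ± 46.8 for XX_Paf, 305 ± 26.1 for XpO and 406 ± 11.7 for XX_InX, so its XpO arrays were not low as those of Ptprv were. Ube2t and Gpr37l1, the nearest measured genes, had log2 differences between the crosses of 0.22 (SE 0.62) and -0.45 (SE 0.25). Ube2t was above background on only 3 of the 10 arrays, so its value says little.

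The 5 probe sets whose log2 intensities were most like those of Ptprv over the 10 arrays were ranked by Pearson correlation among 7802. They belonged to the 14-3-3 protein gene Ywhaq (r = 0.954, not its brightest probe set), the actin-associated Pdlim4 (0.885), the ecto-nucleotidase gene Nt5e (0.876), the synaptotagmin-like Sytl4 (0.870) and the lens filament gene Bfsp1 (0.865). The closest, Ywhaq, was at 122 ± 25.9 for XmO, 84.1 ± 5.46 for XX_Paf, 67.8 ± 2.76 for XpO and 140 ± 5.59 for XX_InX. They were above background on 7 to 10 of the arrays, and none was called for the difference between the crosses (limma, adjusted p = 0.832 for each). A likeness chosen from so many probe sets over 10 arrays is a description only.

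The LAR family receptors Ptprs, Ptprd and Ptprf bind heparan sulphate proteoglycans and organise synapses through adhesion partners. All were above background on every array, and no probe set of theirs was called in any comparison. Ptprs, the receptor PTP sigma, was at 3672, 3967 and 3268 on XmO arrays 1, 2 and 7, and at 3270, 3496 and 3641 on XX_Paf arrays 1 to 3. It was at 3063 and 3396 on XpO arrays 15 and 18, and at 3351 and 2526 on XX_InX arrays 1 and 19. The groups overlapped throughout, apart from the single low array XX_InX 19. The log2 difference was 0.06 (95% interval -0.20 to 0.33) for XmO minus XX_Paf and 0.15 (-0.17 to 0.47) for XpO minus XX_InX. With 1 array left out the latter ran from -0.06 (without XX_InX 19) to 0.35 (without XX_InX 1).

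Ptprd had 3 probe sets, of which c was below background on every array. On probe set a the XmO arrays were at 1298, 1444 and 1302, and the XX_Paf arrays at 1834, 1393 and 1485. The XpO arrays were at 1470.1 and 1304, and the XX_InX arrays at 1225 and 1161. XX_InX was the lowest group, with both of its arrays below every other array. The log2 difference for XX_Paf minus XX_InX was 0.39 (95% interval 0.08 to 0.69; limma, adjusted p = 0.280). The monosomy difference was -0.21 (-0.48 to 0.06) in the Paf cross, and -0.10 there without XX_Paf 1. In the In(X) cross it was 0.22 (-0.12 to 0.55), 0.13 without XpO 15 and 0.30 without XpO 18. The difference between the crosses, -0.43 (-0.86 to 0.00), was not called either (limma, adjusted p = 0.832). On probe set b XX_InX also had the lowest mean, but it overlapped with every other group: Ptprd was at 771 ± 110.0 for XmO, 721 ± 36.0 for XX_Paf, 702 ± 11.4 for XpO and 673 ± 112 for XX_InX.

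Ptprf, which encodes LAR itself, was the steadiest of the genes across groups. Its means were 880 ± 100.4 in XmO, 809 ± 40.0 in XX_Paf (SD, n = 3 each), 889 ± 186 in XpO and 838 ± 105 in XX_InX (SD, n = 2 each). The highest and lowest group means differed by 0.12 in log2, less than the within-group SD of 0.18. Its monosomy difference was 0.12 (95% interval -0.20 to 0.44) in the Paf cross and 0.08 (-0.32 to 0.47) in the In(X) cross. The latter was -0.14 without XpO 18, the array at 1021, and 0.29 without XpO 15.

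**Figure D2:**
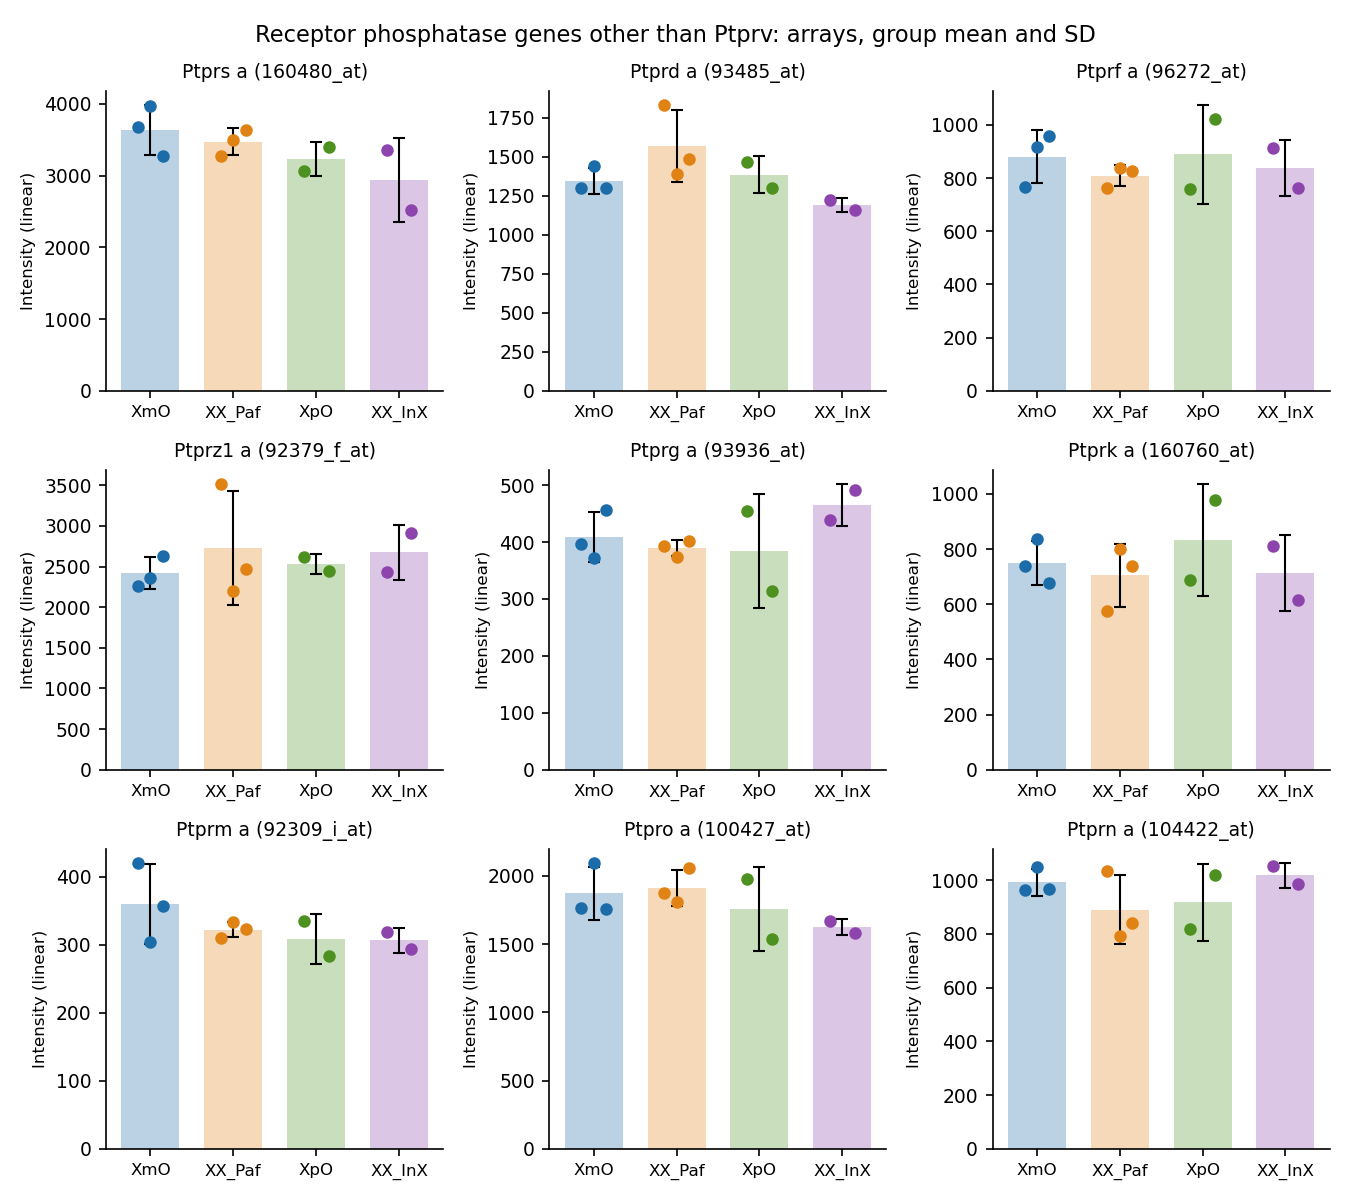
Intensity (linear axes from 0) of the brightest probe set of each of the 9 genes other than Ptprv; points are arrays, bars the group mean and whiskers the SD (n = 3 for XmO and XX_Paf, n = 2 for XpO and XX_InX). The groups overlap in most panels; Ptprd is lowest in XX_InX, at 1161 and 1225.

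Ptprz1 and Ptprg carry a carbonic anhydrase-like domain. Ptprz1 is a chondroitin sulphate proteoglycan of radial glia and oligodendrocyte precursors and binds pleiotrophin and contactin 1. Its 3 probe sets did not rank the groups alike. On probe set b the XmO arrays were at 1816, 1185 and 1180, and the XX_Paf arrays at 1708, 1635 and 1568. The XpO arrays were at 1451 and 1192, and the XX_InX arrays at 1273 and 1051. XX_Paf lay above XX_InX with no overlap, by 0.50 in log2 (95% interval 0.10 to 0.90; limma, adjusted p = 0.283), while XmO overlapped with XX_Paf because of its array 1. On probe set a the means were 2420 ± 192 for XmO, 2728 ± 697 for XX_Paf, 2533 ± 125 for XpO and 2673 ± 337.5 for XX_InX, with XX_Paf 1 alone at 3517. Without that array the log2 difference of probe set a for XmO minus XX_Paf moved from -0.15 to 0.05.

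Ptprz1 probe set c pointed another way. The XmO arrays were at 130.3, 153 and 147, and the XX_Paf arrays at 195.5, 208 and 143. The XpO arrays were at 151 and 181, and the XX_InX arrays at 194 and 255. XX arrays were mostly the higher ones, except XX_Paf 3. The log2 difference of XO minus XX over both crosses was -0.38 (95% interval -0.77 to 0.02), and it was not called (limma, adjusted p = 1). For XX_Paf minus XX_InX this probe set gave -0.31 (SE 0.26), opposite in sign to probe set b; it was -0.51 without XX_InX 1 and -0.11 without XX_InX 19. Ptprz1 probe sets a and c carry name suffixes (_f and _r) that mark relaxed rules of probe choice on this array. Among the other named probe sets, Ptprm a and that of Cyb5r1 (_i) and that of Cask (_f) carry such suffixes too. So do Ptprk b and the probe sets of pleiotrophin, Ctnnd2 and Col1a2 (_r). The summed markers of the oligodendrocyte lineage were at 2573 to 2862 in XmO and 2141 to 2499 in XX_Paf, which did not overlap. In that comparison 13.9% of all tested probe sets did not overlap. The sum was at 2121 to 2875 in XpO and at 2229 to 3027 in XX_InX. Its genes did not move alike. In XmO minus XX_Paf the log2 difference was 0.38 (SE 0.19) for Pdgfra, 0.07 (SE 0.17) for Sox10 and -0.24 (SE 0.19) for Mbp. The sums for radial glia overlapped between all groups (16086 to 19174 over all arrays), but single genes went in both directions. In XX_Paf against XX_InX 3 of the 8 tested genes had an unadjusted limma p under 0.05 (13.8% of all probe sets did). They were Glul (0.48, SE 0.19), Gfap (-0.67, SE 0.24) and Vim (-1.09, SE 0.49), and none was called. The part of either marker list in the Ptprz1 values was not tested.

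Ptprg was at 396, 373 and 457 in XmO, and at 393, 374 and 401 in XX_Paf. It was at 455 and 314 in XpO, and at 439 and 491 in XX_InX. XX_InX lay above XX_Paf with no overlap, while the XpO arrays were far apart. The log2 difference was 0.06 (95% interval -0.30 to 0.43) in the Paf cross and -0.30 (-0.74 to 0.15) in the In(X) cross. The latter was -0.03 without XpO 18 and -0.57 without XpO 15.

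Ptprk and Ptprm carry a MAM domain and bind the same receptor on a neighbouring cell, next to cadherins. Ptprk on probe set a was at 749.7 ± 80.2 in XmO, 704 ± 115 in XX_Paf (SD, n = 3 each), 833 ± 203.5 in XpO and 714 ± 138 in XX_InX (SD, n = 2 each). The highest array was XpO 18 (977), and the lowest XX_Paf 1 (576). The log2 difference in the In(X) cross was 0.21 (95% interval -0.26 to 0.69), and it was -0.04 without XpO 18 and 0.47 without XpO 15. Its probe set b was at 1.5 to 20.5, below background on every array.

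Ptprm had a pair of tested probe sets whose monosomy differences in the Paf cross had opposite signs. On probe set a the difference was 0.15 (95% interval -0.21 to 0.51), with XmO at 421, 304 and 356 and XX_Paf at 310.5, 333 and 323. On probe set b it was -0.16 (-0.56 to 0.24), with XmO at 239, 232 and 284 and XX_Paf at 326, 259 and 259. In both cases the XmO and XX_Paf arrays overlapped. In the In(X) cross probe set b was at 309 and 239 in XpO and at 230.3 and 233 in XX_InX, which did not overlap (0.23, -0.26 to 0.72), while probe set a gave 0.01 (-0.44 to 0.45). With 1 array left out, probe set b ran from 0.05 (without XpO 15) to 0.41 (without XpO 18), and probe set a from -0.11 to 0.13 (likewise).

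Ptpro, a single-domain phosphatase known from kidney podocytes and growing axons, was at 1768, 2096 and 1755 in XmO, and at 1877, 1806 and 2061 in XX_Paf. It was at 1976 and 1539 in XpO, and at 1668 and 1585 in XX_InX. XX_Paf lay above XX_InX with no overlap (0.23, 95% interval -0.07 to 0.53; limma, adjusted p = 0.468). The difference in the Paf cross was -0.03 (-0.30 to 0.23) and that in the In(X) cross 0.10 (-0.23 to 0.43), which was -0.08 without XpO 15 and 0.28 without XpO 18.

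Ptprn encodes a catalytically inactive phosphatase-like protein of dense-core vesicles. It was at 962, 1049 and 965 in XmO, at 1035, 792 and 842 in XX_Paf, at 817 and 1019.6 in XpO, and at 1051 and 986 in XX_InX. The lowest arrays were XX_Paf 2, XpO 15 and XX_Paf 3, and each XO group overlapped with the XX group of its cross. The difference was 0.17 (95% interval -0.13 to 0.46) in the Paf cross and -0.16 (-0.52 to 0.21) in the In(X) cross. The latter was 0.0026 without XpO 15 and -0.32 without XpO 18. The difference between the crosses was 0.32 (-0.15 to 0.79), ran from 0.16 to 0.48 with 1 array left out, and was not called (limma, adjusted p = 0.874). The summed neuroendocrine and pituitary markers were at 6104 to 6932 in XmO and 6029.5 to 6070.0 in XpO, which did not overlap. In that comparison 17.4% of all tested probe sets did not overlap. Of the 9 tested genes of this list, 5 were higher in XmO than in XpO, among them Scg3 (0.24 in log2, SE 0.23), and 4 were lower. The summed markers were at 5890 to 7172 in XX_Paf and 5643 to 6622 in XX_InX, and their part in the Ptprn values was not tested. The gene of smallest p in this list was prolactin (Prl), a pituitary hormone, at 57.3 ± 27.1 for XmO, 156 ± 26.1 for XX_Paf, 66.0 ± 8.98 for XpO and 150.1 ± 53.0 for XX_InX. It was above background on 7 arrays and was not called in XO minus XX (-1.34, SE 0.30; limma, adjusted p = 0.953).

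**Figure D3:**
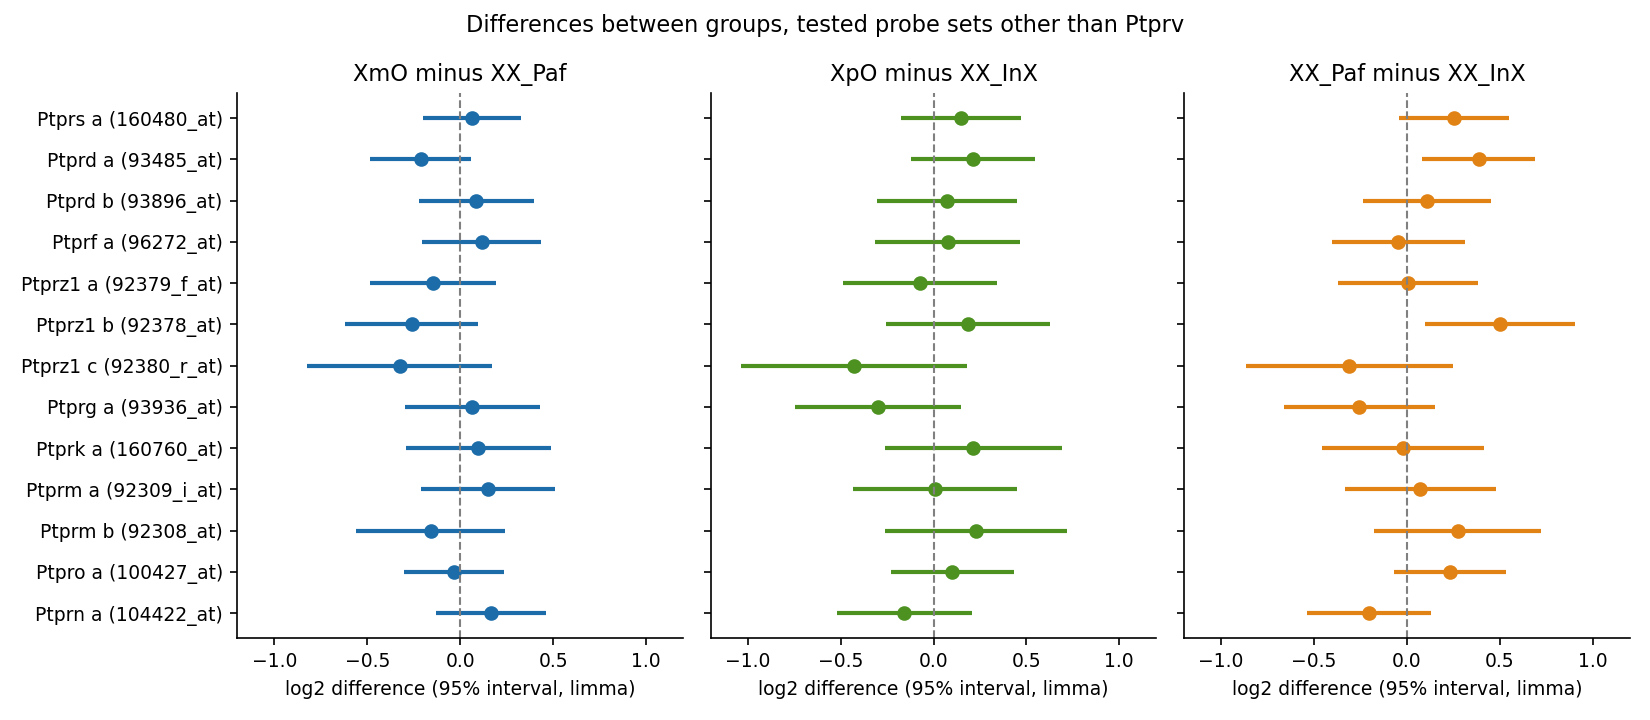
Log2 differences with 95% intervals (limma, all arrays in 1 fit) for the 13 tested probe sets of the genes other than Ptprv, in XmO minus XX_Paf, XpO minus XX_InX and XX_Paf minus XX_InX. Every interval of the left and middle panels includes 0; in the right panel those of Ptprd a and Ptprz1 b do not, at unadjusted p of 0.0168 and 0.0188.

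Over the 9 genes other than Ptprv, 0 of 13 tested probe sets were called by limma in any of the 6 comparisons. The background of calls was as low: 0.0115% of all 8695 tested probe sets in XO against XX, in XpO against XX_InX and in XmO against XpO, 0.0230% in XmO against XX_Paf, and 0.0805% in XX_Paf against XX_InX. At an unadjusted p under 0.05 there were 2 of 13 in XX_Paf against XX_InX, where 13.8% of all probe sets had such a p. There were 0 in the other 5 comparisons, where the shares of all probe sets were 2.60% (XO against XX), 5.53% (XO against XX in the Paf cross), 3.38% (the same in the In(X) cross), 4.83% (XmO against XpO) and 5.91% (the difference between the crosses). The comparisons share arrays and are not independent. In XmO against XX_Paf the estimates ran from -0.33 (Ptprz1) to 0.17 (Ptprn), with a median of 0.06 beside 0.00 for all probe sets. In XpO against XX_InX they ran from -0.43 (Ptprz1) to 0.23 (Ptprm), with a median of 0.08 beside -0.01. In XmO against XpO they ran from -0.21 (Ptprz1) to 0.21 (Ptprm).

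The intervals differed in width between probe sets. For XmO against XX_Paf the 13 intervals together reached from a ratio of 0.565 (Ptprz1 c) to 1.42 (Ptprm a). For XpO against XX_InX, with fewer arrays, they reached from 0.487 to 1.65. Narrower ones, such as 0.871 to 1.26 for Ptprs and 0.869 to 1.35 for Ptprf in XmO against XX_Paf, lie within these limits.

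Probe sets whose groups did not overlap were counted beside the share of the whole array, with no test of the difference. In XmO against XX_Paf they were 0 of 13, where 13.9% of all tested probe sets did not overlap. In XpO against XX_InX they were 3 of 13 (23.1%; Ptprd a, Ptprm b and Ptprz1 c) beside 23.4%. In XX_Paf against XX_InX they were 5 of 13 (38.5%; Ptprd, Ptprg, Ptprm, Ptpro and Ptprz1, 1 probe set each) beside 37.1%. Globin RNA also differed between these XX groups. Hba-a1, an alpha globin gene, was at 10866 ± 2001 in XX_Paf and 3674 ± 1133 in XX_InX (1.58, limma adjusted p = 0.0211). Alas2, another red cell marker, was at 162 ± 24.9 in XX_Paf and 150 ± 43.8 in XX_InX (0.12, SE 0.37) and was not called. The summed red cell markers were at 11677 to 16910 in XX_Paf and 4020 to 6029 in XX_InX. The XO groups of the crosses were split likewise, at 11206 to 17211 in XmO and 5974 to 7385 in XpO. The part of red cell RNA in the differences of the phosphatases was not tested. For XO against XX a probe set was counted if the groups did not overlap within each cross, in the same direction. That count was 0 of 13 beside 0.851%. In XmO against XpO it was 0 of 13 beside 17.4%. For groups that did not overlap in opposite directions in the crosses, as in Ptprv, the count was 0 of 13 beside 2.02%.

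**Figure D4:**
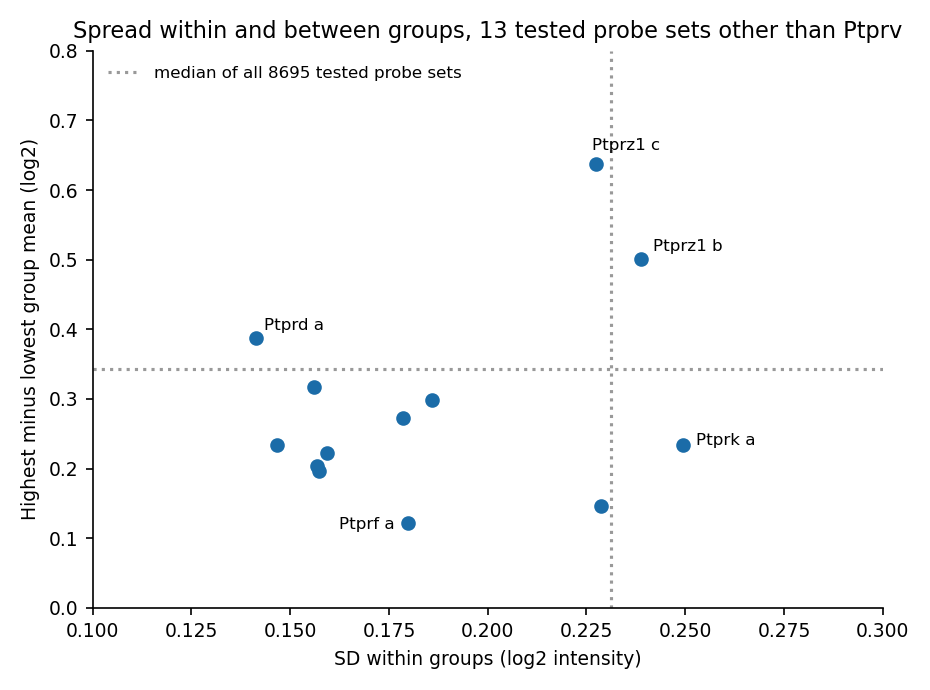
SD within groups (x axis, log2) against the highest minus the lowest group mean (y axis, log2) for the 13 tested probe sets of the genes other than Ptprv; dotted lines are the medians of all 8695 tested probe sets. The probe sets lie at 0.14 to 0.25 and 0.12 to 0.64, with Ptprz1 c highest and Ptprf a lowest.

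Over the 13 tested probe sets other than Ptprv, the median within-group SD was 0.18 in log2, beside 0.23 for all tested probe sets, and the median range of group means was 0.23 beside 0.34. The range ran from 0.12 for Ptprf, at the 6.475th percentile of all tested probe sets, to 0.64 for Ptprz1 c, at the 82.94th. Ptprz1 b (0.50) and Ptprd a (0.39) were also above the median of all.

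Other receptor-type phosphatases on the array gave no calls either. Of 8 such genes, 6 were tested and 0 were called in either direction in any comparison. The 3 with the smallest p over the 4 groups were the MAM-domain receptor Ptpru, Ptpre, and Ptprn2, the partner of Ptprn in dense-core vesicles. Ptpru was at 643 ± 13.0 for XmO, 692 ± 43.0 for XX_Paf, 520.2 ± 65.6 for XpO and 570.2 ± 145 for XX_InX. These 3 had estimates below 0 in both crosses, from -0.10 to -0.20, but the 6 tested genes did not go 1 way. In XmO minus XX_Paf 1 was higher and 5 were lower, and in XpO minus XX_InX 3 were higher and 3 lower. Ptprc (CD45), the phosphatase of leukocytes, and Ptprb, that of blood vessels, were below background on every array. Of the 10 tested non-receptor phosphatase genes, which lack a membrane part, 0 were called.

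Ligands and co-receptors of the family were followed through 22 tested genes, of which 0 were called in any comparison. In XX_Paf against XX_InX 7 of the 22 had an unadjusted p under 0.05 (13.8% of all probe sets did). Pleiotrophin (Ptn), the growth factor that binds Ptprz1, was at 229 ± 31.8 for XmO, 387 ± 71.0 for XX_Paf, 196 ± 61.3 for XpO and 163 ± 18.9 for XX_InX. XX_Paf was the high group, as it was for Ptprz1 on probe set b, and the log2 difference for XX_Paf minus XX_InX was 1.24 (SE 0.25; limma, adjusted p = 0.123). N-cadherin (Cdh2), which lies beside Ptprm and Ptprk at cell contacts, was at 2549 ± 38.5 in XX_Paf and 1716 ± 25.5 in XX_InX (0.57, SE 0.11; limma, adjusted p = 0.108). Perlecan (Hspg2), a heparan sulphate proteoglycan, was at 132 ± 2.54 for XmO, 292 ± 103.5 for XX_Paf, 325 ± 105 for XpO and 153 ± 18.03 for XX_InX. That is the reverse of the Ptprv pattern, and it was not called (difference between crosses -2.15, SE 0.41; limma, adjusted p = 0.391). Midkine (Mdk), the other growth factor of Ptprz1, averaged 878 ± 216 for XmO and 811 ± 11.8 for XX_Paf, and 1094 ± 259 for XpO and 1096 ± 39.6 for XX_InX.

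Of the 16 tested cytoplasmic partners, again 0 were called. In XX_Paf against XX_InX 7 of the 16 had an unadjusted p under 0.05 (13.8% of all probe sets did). The liprin Ppfia4, a scaffold of the family that binds the membrane-distal phosphatase domain of LAR receptors, was at 453 ± 129 for XmO, 599 ± 71.4 for XX_Paf, 478 ± 91.2 for XpO and 199 ± 83.7 for XX_InX, so that XX_InX was the low group. Its log2 difference for XX_Paf minus XX_InX was 1.65 (SE 0.28; limma, adjusted p = 0.0568). Enah, an actin regulator, was at 1561 ± 134 for XmO, 1550 ± 154 for XX_Paf, 1474 ± 298 for XpO and 1079 ± 183 for XX_InX, again lowest in XX_InX. The delta-catenin Ctnnd2 was at 4463 ± 133 in XmO and 3664 ± 122 in XX_Paf (0.28, SE 0.10; limma, adjusted p = 0.877).

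A few partners are X-linked, and XO animals carry 1 copy of them. In XO minus XX over both crosses the log2 difference was 0.29 (SE 0.17) for the adhesion molecule L1cam, -0.24 (SE 0.13) for the glypican Gpc3, 0.24 (SE 0.31) for Gpc4 and -0.04 (SE 0.09) for the scaffold Cask. These went in both directions and none was called (limma, adjusted p = 1 for each). They were picked by chromosome after the values were seen.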

How the data were processed

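The deposited table holds 1 intensity per probe set and array for whole-brain RNA, on a linear scale. How the authors summarised the probes is not stated in the labels, but every deposited array has the same trimmed mean (2% off each end), so intensities were used without further normalization. Controls (66 probe sets) were left out. Symbols came from the platform annotation, updated through a reference table of GRCm38.p6; 10833 probe sets had 1 symbol, 396 several and 1193 none. Values under the 10th percentile (15) were raised to it and taken to log2, and the 8695 probe sets with a mean at or over the 30th percentile were tested with limma 3.58.1 in R 4.3.3 (1 mean per group, eBayes with trend, 6 residual degrees of freedom). There were 6 contrasts, with Benjamini-Hochberg adjustment over all tested probe sets, and a call is an adjusted p under 0.05. The steps were tested on simulated data. Group means ± SD are of the intensities, and differences are in log2.

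The members, gene lists and alternatives were chosen with earlier results of these data known. Named are all member probe sets, from each other list up to 3 genes of smallest moderated F p-value, the 5 measured neighbours of Ptprv on either side, and the 5 probe sets most like it. Mdk, Ptprc, Ptprb, Ibsp and the X-linked partners were named after their values were seen. A gene in a list is represented by its brightest probe set. The number of arrays limits the precision. No scan dates or detection calls were used here.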

Additional observations from a re-analysis of the deposited data

Results flagged for a closer look

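Ptprv probe set a, its brightest, is listed because the effects of monosomy in the crosses differed: all XmO arrays were above all XX_Paf arrays, and all XpO arrays were below all XX_InX arrays. The log2 difference between the effects is at least 3.05. Its size was the reason for describing the family, so it is given as a description. The other Ptprv probe sets were below background on every array.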

How the results depend on the processing

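Under 19 alternatives, 0 of the 13 tested probe sets other than Ptprv were called in any of the 6 comparisons. Counts over all probe sets moved as follows, in the order XO against XX (1), the Paf cross (2), the In(X) cross (1), XmO against XpO (1), difference between crosses (2) and XX_Paf against XX_InX (7). Without the filter they were 5, 4, 7, 3, 5 and 17. Leaving out XpO 18 and XX_InX 1 together gave 3, 2, 3, 0, 1 and 21; at the 0 of limma, 609 probe sets had an unadjusted p under 0.05. Leaving out 1 array gave 1 to 3, 2 to 4, 1 to 4, 1 to 7, 0 to 4 and 2 to 17. A floor at the 25th percentile gave 2 for XmO against XpO, a filter at the 50th percentile 1 for the difference between crosses, and a fit with no trend 0 for that (511 unadjusted) and 2 for XX_Paf against XX_InX. The 2 calls for the difference between crosses include Ptprv, on which the genes were chosen, so its call is no result. In 10 of the 19 alternatives it was not made. Among these was the filter at the 50th percentile, where Ptprv was too dim to be tested. Its bound of at least 3.05 ran from 2.39 to 3.71 with 1 array left out. The cause of these shifts was not tested.

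Of 883 member estimates under the alternatives, 19 changed sign, and none of these was called. Not all were close to 0. Without XpO 18, the estimates in XpO against XX_InX moved from 0.21 to -0.038 for Ptprk and from 0.08 to -0.14 for Ptprf. Without XpO 18 and XX_InX 1 together, Ptprf was at -0.012 in XpO against XX_InX. With 1 array left out, the ranges for XmO against XX_Paf were -7e-04 to 0.14 (Ptprs), -0.026 to 0.16 (Ptprd b), -0.29 to 0.052 (Ptprz1 a), -0.019 to 0.13 (Ptprg), -0.040 to 0.20 (Ptprk) and -0.12 to 0.0196 (Ptpro). Those for XpO against XX_InX were -0.055 to 0.35 (Ptprs), -0.10 to 0.24 (Ptprd b), -0.14 to 0.29 (Ptprf), -0.20 to 0.056 (Ptprz1 a), -0.038 to 0.47 (Ptprk), -0.11 to 0.13 (Ptprm a), -0.079 to 0.28 (Ptpro) and -0.32 to 0.0026 (Ptprn).

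XmO, XX_Paf and XX_InX share replicate numbers. Deviations from the group means of same-numbered arrays correlated at -0.121 to 0.0317. With different numbers, the correlation was 0.0865 for XmO 1 with XX_Paf 2 and 0.0394 for XmO 2 with XX_Paf 1. In groups of so few arrays the deviations depend on each other. Whether same-numbered arrays share more than a number therefore cannot be decided from these values. With the replicate block the counts were 1, 2, 1, 1, 2 and 7. The number of arrays, and signal near background for Ptprv, limit precision.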
